A study of Mus musculus with 12 samples.

Results

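The nuclear-encoded subunits of respiratory complexes I, II, III and V were followed in RNA from dissected mouse cardiogenic regions, the tissue that forms the heart, in embryos of day 8 (E8), day 8.5 (E8.5), day 9.5 (E9.5) and day 14 (E14). Genes were chosen by name: the Nduf genes of the a, b, c, s and v families with Ndufab1, the 4 Sdh genes, 8 Uqcr genes and every Atp5 gene, each with at least 100 counts summed over the 12 libraries. This gave 66 genes of the 48709 rows of the deposited count table, with 37 in complex I, 4 in complex II, 8 in complex III and 17 in complex V. All 66 passed the filter on low counts, and their summed counts ran from 7621 for Atp5s to 1251159 for Atp5b. Each stage had 3 libraries of total RNA, and the labels give no strain, genotype or treatment for any stage.

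The respiratory chain lies in the inner mitochondrial membrane. Complex I takes electrons from NADH and complex II takes them from succinate, both pass them through ubiquinone to complex III, and complexes I and III move protons out of the matrix as they do so. Complex V, the ATP synthase, lets the protons return through a rotating ring of subunit c and uses that turn to make ATP in its F1 head. The adult heart is among the tissues richest in these complexes, and the embryonic heart passes from a mainly glycolytic to a more oxidative metabolism as it grows. The names do not match composition everywhere: Ndufa4 is now placed in complex IV, and Atp5s and Atp5sl (listed as Dmac2 in GENCODE) are not structural subunits of the synthase. In the table all 37 mitochondrial chromosome genes stand at 0 counts, so the mitochondrially encoded subunits of complexes I, III and V were not analysed here. Cyc1, the cytochrome subunit of complex III, has a name outside the rule and is given with the electron carriers.

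Total counts per library ran from 56574386 to 122785175, and E14 had the shallowest library. The labels do not tie the libraries to separate embryos or litters, and p-values therefore cover the spread among these samples alone, part or all of which could be technical. In whole tissue, fewer cells of a type and less RNA per cell cannot be told apart. All 14 cardiomyocyte markers examined had counts. Their summed level, in counts scaled to library size (CPM), was 23241 to 23810 in E8 libraries, 19786 to 27670 in E8.5 libraries, 21389 to 23396 in E9.5 libraries and 30393 to 32727 in E14 libraries. Ttn, which encodes the giant sarcomere protein titin, is a large part of that sum, and without it the other 13 markers summed to 13544 to 15182 CPM at E8, 13247 to 14961 CPM at E8.5, 17228 to 19453 CPM at E9.5 and 24645 to 25093 CPM at E14. E8.5 replicate 3 stood apart: 10 genes of visceral endoderm and liver summed to 1863 CPM there, against 191 and 96.5 CPM in E8.5 replicates 1 and 2 and 153 CPM at most at any other stage. Counts on overlapping genes may be shared: 27 of the 66 genes overlapped another gene, and 8 (Ndufs1, Ndufb5, Ndufb6, Ndufb2, Ndufa13, Ndufb11, Atp5j and Atp5o) overlapped one with at least 0.5 times their own count. Of 7 -ps rows of these families, 6 had a parent among the 66 genes, with at most 11.2% of the count of that parent (Ndufab1). The other row, Atp5l2-ps, had 13347 counts and no parent among the 66. Reads shared with such rows are uncertain.

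Every subunit gene changed over the 4 stages. Nearly all had stage means along the same course: slightly lower at E8.5 than at E8, higher at E9.5 and highest at E14. The first of these steps passed the test for 1 gene only and depended on single libraries, as described below. By edgeR's quasi-likelihood test over the 4 stages, 66 of 66 changed at an adjusted p under 0.05, against a background of 72.3% of the 28846 genes tested; the highest adjusted p was 0.000321, for Atp5s. The mean level was highest at E14 for all 66 genes. It was lowest at E8.5 for 63 genes and lowest at E8 for Ndufs4, Sdha and Atp5s. The genes together took 0.403% to 0.545% of the counts of each E8 and E8.5 library, 0.708% to 0.794% of each E9.5 library and 0.953% to 1.07% of each E14 library.

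**Figure D1:**
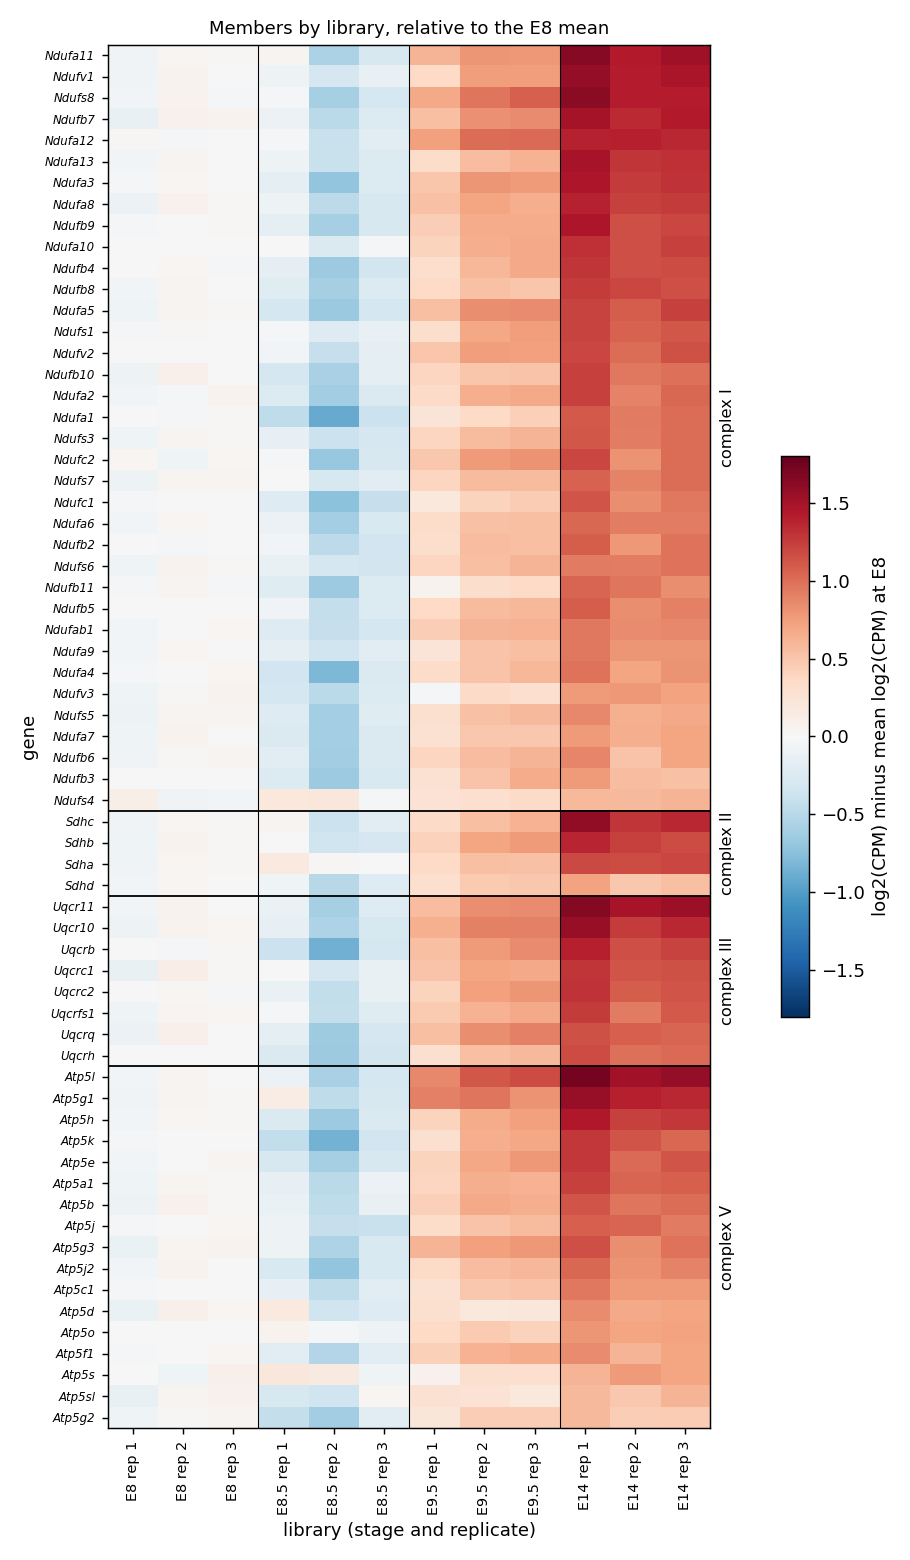
Log2 level of 65 of the 66 genes (rows, grouped by complex) in each of the 12 libraries (columns, by stage and replicate), relative to the mean of that gene at E8. Blue-to-red colour runs along the scale shown; the E8.5 columns lie slightly below 0, replicate 2 lowest, and the E14 columns are the highest in every complex.

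The proportions between complexes moved little beside this rise. Complex V genes held 53.7% ± 0.324 of the counts of the 66 genes in E8 libraries, 53.9% ± 0.586 in E8.5 libraries, 53.7% ± 0.496 in E9.5 libraries and 51.9% ± 0.125 in E14 libraries (SD, n = 3 libraries each). Complex III genes held 10.9% ± 0.0703, 10.6% ± 0.156, 11.6% ± 0.214 and 12.1% ± 0.143 at the same stages. Complex I genes stayed between 28.0% and 29.3% in all libraries. Complex II genes held between 6.40% and 7.57%. Per kilobase of exon, mean levels at E14 were highest for the genes of the catalytic head of complex V, with 434 CPM per kilobase for Atp5a1 and 412 for Atp5b. Within complex I they ran from 9.22 CPM per kilobase for Ndufb2 to 119 for Ndufb9, within complex II from 49.0 for Sdhc to 140 for Sdhd, and within complex III from 28.4 for Uqcrq to 214 for Uqcr11. These levels divide by the union of annotated exons, which can be longer than the transcript used, and counts may include intronic reads.

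The promoters of several of these genes hold sequences known from the control of respiratory genes, and 5 stretches are shown for genes whose values follow below, each read 5′ to 3′ on the strand of its gene and ending at the base before the RefSeq start (GRCm38.p6). Capitals mark the matches to the core of the nuclear respiratory factor NRF1 site (GCATGCG), to the ETS core used by the GABP factor (CCGGAAG) and to the oestrogen-related receptor (ERR) site (AAGGTCA), on either strand. Where the NRF1 core overlaps its own reverse complement, CGCATGC, 8 letters are in capitals. Atp5l, which had the largest rise between E8 and E14, has all 3 in the 250 bases upstream of its start (chr9:44920743-44920992, minus strand). The other 4 stretches are 100 bases long and come from Ndufa11 (chr17:56717662-56717761, plus strand), Sdhb (chr4:140961171-140961270, plus strand), Atp5k (chr5:108434400-108434499, minus strand) and Atp5g2 (chr15:102671048-102671147, minus strand), the last of which had the smallest rise.
Atp5l: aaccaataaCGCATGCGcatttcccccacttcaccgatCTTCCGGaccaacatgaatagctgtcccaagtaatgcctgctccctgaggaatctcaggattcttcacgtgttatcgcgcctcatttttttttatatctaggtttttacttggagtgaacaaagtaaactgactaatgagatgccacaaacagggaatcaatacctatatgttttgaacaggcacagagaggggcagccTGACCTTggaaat
Ndufa11: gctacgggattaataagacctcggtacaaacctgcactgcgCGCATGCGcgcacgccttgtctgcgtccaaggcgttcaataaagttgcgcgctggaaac
Sdhb: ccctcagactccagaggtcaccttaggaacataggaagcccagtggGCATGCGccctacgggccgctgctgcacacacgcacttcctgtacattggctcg
Atp5k: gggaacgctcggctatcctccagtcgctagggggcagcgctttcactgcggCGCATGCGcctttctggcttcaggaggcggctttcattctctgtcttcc
Atp5g2: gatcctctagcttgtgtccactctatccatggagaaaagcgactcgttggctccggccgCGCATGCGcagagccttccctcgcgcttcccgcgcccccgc
Promoter sequences from 250 bases before to 50 bases after the start were found in RefSeq for 54 of the 66 genes, 59 promoters in all. The NRF1 core was in 16.9% of the 59 promoters, against 5.31% of the promoters of coding genes tested and 3.58% of all 32851 RefSeq promoters searched. The ETS core was in 22%, against 13.9% and 8.86%. The ERR site was in 13.6%, against 3.62% and 4.72%, and the core of the YY1 site (AAGATGG) was in 15.3%, against 6.28% and 6.34%. The GC box GGGCGG was in 37.3%, against 55.5% and 35.7%. In the printed stretches the NRF1 core begins 240 bases before the start in Atp5l, 58 in Ndufa11, 54 in Sdhb, 48 in Atp5k and 40 in Atp5g2, all on the strand of the gene. Uqcr11 and Atp5j also hold NRF1 and ETS cores, and with Atp5l, Atp5k and Sdhb they make up the 5 genes that have both. Some of the counted gene intervals reach past the RefSeq start. The printed Atp5g2 stretch lies wholly within its counted interval, and those of Sdhb and Atp5k lie partly within theirs. A match is a run of letters and not a measured binding site, and genes with a large and a small rise are both among those with a match.

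Between E8 and E8.5 the subunit genes were slightly lower as a group, but a single gene passed the test. In E8.5 libraries 63 of the 66 genes had a negative log2 fold change relative to E8, with a median of -0.30 in complex I, -0.19 in complex II, -0.31 in complex III and -0.29 in complex V, against 0.02 over all genes tested. By edgeR's quasi-likelihood test 1 gene was lower, against a background of 0.291%, and 0 were higher, against 0.891%. At an unadjusted p under 0.05, 44 were lower, against 12.1% of all genes tested, and 0 higher, against 16%. DESeq2 called 0 of the 66 higher, against 2361 of the 28846 genes tested. All 3 E8.5 libraries lay below all 3 E8 libraries for 47 of the 66 genes, against 13.5% of all genes. The gene called was Ndufa1, a small membrane subunit needed for complex I assembly. Ndufa1 had 12, 8.84 and 12.6 CPM in the E8.5 libraries, against 16.5, 16.2 and 16.8 CPM in the E8 libraries. All E8.5 values lay below all E8 values, with replicate 2 lowest (log2 fold change -0.57 ± 0.11, SE; edgeR adjusted p = 0.0454). Next were Atp5k, subunit e of the synthase, at -0.53 ± 0.13 (edgeR adjusted p = 0.0543) and Uqcrb, a subunit near the quinone site of complex III, at -0.50 ± 0.13 (0.0587).

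This comparison depended on single libraries. Without E8.5 replicate 3, 34 genes were lower (edgeR), against a background of 15.7%, and DESeq2 on all libraries also called 34 lower, against 7.19%. The call of Ndufa1 ended in edgeR without any one of the 3 E8 libraries, without E8.5 replicate 2, without any one of the E9.5 or E14 libraries, with a replicate block, with offsets adjusted for gene span and with the compared stages alone (log2 fold change -0.59 to -0.42, adjusted p = 0.0502 to 0.217). E8.5 replicate 2 was the lowest E8.5 library for 61 of the 66 genes. Its summed cardiomyocyte markers, 25059 CPM, lay between those of replicates 1 (19786 CPM) and 3 (27670 CPM). Without Ttn the order was reversed, with 14961, 14451 and 13247 CPM in replicates 1 to 3. Replicate 3, in which the visceral endoderm genes were highest, was the lowest library for 5 genes. The 14 cardiomyocyte markers had a median of -0.18 for E8.5 against E8, from -0.38 (Myl7) to 0.79 (Ryr2), with edgeR adjusted p of 0.0612 to 0.791. The part of these markers in the result was not tested.

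**Figure D2:**
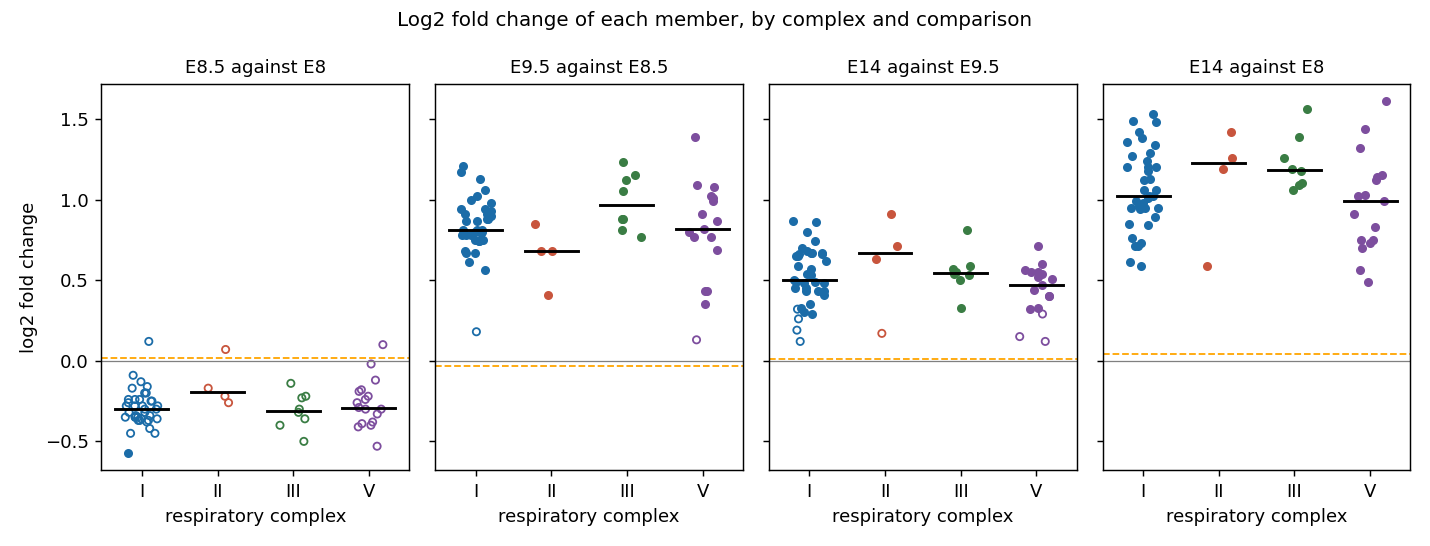
Log2 fold change of each gene (points) by complex (x axis) in the 4 comparisons (panels); filled points passed edgeR's test at an adjusted p under 0.05, black bars are complex medians and the dashed line is the median of all genes tested. Points lie mostly between -0.57 and 0 for E8.5 against E8 and above 0 for all 66 genes in the other 3 panels.

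Between E8.5 and E9.5 the subunit genes rose in all 4 complexes. By edgeR's test 64 of 66 were higher at E9.5, against a background of 18.4%, and 0 were lower, against 18.5%. At an unadjusted p under 0.05, 0 were lower, against 24% of all genes tested. DESeq2 also called 0 of the 66 lower, against 5606 of the 28846 genes tested. The median log2 fold change was 0.81 in complex I, 0.68 in complex II, 0.97 in complex III and 0.82 in complex V, against -0.03 over all genes tested. All 3 E9.5 libraries lay above all 3 E8.5 libraries for 65 genes, against 22.4% of all genes. The 2 genes not called were Ndufs4 (0.18 ± 0.08, edgeR adjusted p = 0.101) and Atp5s (0.13 ± 0.10, 0.364). The call of Atp5d, the delta subunit of the F1 head, was close to the threshold (0.35 ± 0.12, edgeR adjusted p = 0.0414), with 94.0, 88.4 and 89.1 CPM at E9.5 against 87.6, 60.1 and 65.6 CPM at E8.5; it ended without E8 replicate 2 or 3, without E8.5 replicate 2 or 3, without any one E9.5 library, with the compared stages alone and with offsets adjusted for each gene's span (log2 fold change 0.24 to 0.37, edgeR adjusted p = 0.0554 to 0.145). Of the 14 cardiomyocyte markers 9 rose in the same interval and 2 fell, Ttn (-1.40 ± 0.31) and the calcium release channel gene Ryr2 (-0.89 ± 0.21), with a median of 0.47 (edgeR). Their sums overlapped, at 21389 to 23396 CPM at E9.5 against 19786 to 27670 CPM at E8.5, but without Ttn they did not, at 17228 to 19453 CPM at E9.5 against 13247 to 14961 CPM at E8.5. Erythroid genes rose between the same stages (10 of 10 higher in edgeR, 3982 to 10161 CPM summed at E9.5 against 683 to 1165 CPM at E8.5). Of the 10 visceral endoderm genes 9 fell (edgeR), but their summed ranges overlapped. They had 27.6 to 153 CPM at E9.5, against 191, 96.5 and 1863 CPM in E8.5 replicates 1 to 3. The part of these marker lists in the rise of the subunit genes was not tested.

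Between E9.5 and E14 the rise went on in 58 of 66 genes by edgeR's test, against a background of 25.4%. By the same test 0 were lower, against 24.6%. At an unadjusted p under 0.05, 0 were lower, against 27.5% of all genes tested. DESeq2 also called 0 of the 66 lower, against 7356 of the 28846 genes tested. The medians were 0.50 in complex I, 0.67 in complex II, 0.55 in complex III and 0.47 in complex V, against 0.01 over all genes tested. All 3 E14 libraries lay above all 3 E9.5 libraries for 61 genes, against 32.3% of all genes. Not called were Ndufb3, Ndufb6, Ndufs5 and Ndufc2 of complex I, Sdhd of complex II and Atp5g2, Atp5g3 and Atp5f1 of complex V, with log2 fold changes from 0.12 (Ndufb3 and Atp5g2) to 0.32 (Ndufc2) and edgeR adjusted p from 0.0613 (Atp5g3) to 0.448 (Ndufb3). Ndufb3, a membrane-arm subunit, had 31.9, 27.5 and 27.0 CPM at E14, against 22.7, 26.9 and 29.8 CPM at E9.5. Its E14 and E9.5 values overlapped, while its E9.5 values were all above its E8.5 values of 15.9, 11.9 and 15.5 CPM. Without E14 replicate 1, 5 of these calls ended (Atp5j2, Ndufa4, Atp5sl, Uqcrq and Ndufa7; edgeR). Of the 14 cardiomyocyte markers 9 rose between E9.5 and E14 and 1 fell, the atrial myosin light chain Myl7 (-1.26 ± 0.14), with a median of 0.86 (edgeR). Their sum was higher at E14 (30393 to 32727 CPM) than at E9.5 (21389 to 23396 CPM), and so were those of genes of fibroblasts and matrix (2213 to 2273 CPM against 269 to 444 CPM) and of endothelium and endocardium (698 to 734 CPM against 408 to 461 CPM). The sums of smooth muscle and pericyte genes (709 to 769 CPM against 1966 to 2259 CPM) were lower at E14. So were those of foregut endoderm and epithelium (13.9 to 16.4 CPM against 107 to 141 CPM). Of 10 erythroid genes, 2 were higher and 6 lower (edgeR). The part of these lists in the rise was not tested.

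Over the whole span from E8 to E14 all 66 genes were higher by edgeR's test, against a background of 31.5%, and 0 were lower, against 29.2%. The median log2 fold change was 1.02 in complex I, 1.23 in complex II, 1.19 in complex III and 0.99 in complex V, against 0.04 over all genes tested. All 3 E14 libraries lay above all 3 E8 libraries for every one of the 66 genes, against 36.9% of all genes, and below them for none, against 35.5%. The fold changes ran from 0.49 for Atp5g2 to 1.61 for Atp5l. This comparison shares its E8 and E14 libraries with those above.

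In complex I the 7 core subunits and the 30 supernumerary subunits had similar medians between E8 and E14, at 1.13 and 0.99. Ndufv1 (chr19:4007497-4012806, minus strand), which binds NADH and the flavin, had 59.1, 64.5 and 62.6 CPM at E8, 58.4, 50.3 and 56.3 CPM at E8.5, 79.5, 104 and 104 CPM at E9.5 and 186, 166 and 171 CPM at E14. The E8 and E8.5 values lay close together, and E9.5 and E14 each stood wholly above the stage before. Its log2 fold change was 0.80 ± 0.11 for E9.5 against E8.5 (edgeR adjusted p = 0.000281) and 0.87 ± 0.11 for E14 against E9.5 (3.31e-05), the largest of complex I in the last interval. Ndufs8, which passes electrons through its iron-sulphur clusters towards quinone, had 20.1, 21.8 and 20.6 CPM at E8, 20.3, 13.7 and 16.8 CPM at E8.5, 33.4, 40.7 and 43.7 CPM at E9.5 and 64.0, 55.3 and 55.6 CPM at E14. Its main step was the one to E9.5 (1.21 ± 0.14, edgeR adjusted p = 0.000119), the largest of complex I there, followed by 0.57 ± 0.13 between E9.5 and E14 (0.0038). The iron-sulphur subunit Ndufs1 rose in the same 2 intervals, by 0.74 ± 0.10 at E9.5 against E8.5 and by 0.53 ± 0.10 at E14 against E9.5 (edgeR adjusted p = 0.000417 and 0.00119). Ndufs1 overlaps 3 genes on the other strand. Among them are Ino80dos, with 0.625 times its count, over 14695 bases, and Eef1b2, with 1.46 times its count, over 9 bases.

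Among the supernumerary subunits, which surround the core and serve assembly and stability, Ndufa11 of the membrane arm had the largest rise between E8 and E14. It had 20.6, 22.2 and 22 CPM at E8, 22.3, 14.5 and 17.7 CPM at E8.5, 32.9, 37.3 and 37.1 CPM at E9.5 and 67.1, 58.1 and 62.2 CPM at E14. The E8.5 values reached into the E8 range and the 2 later stages did not (1.53 ± 0.13 for E14 against E8, edgeR adjusted p = 9.9e-07). Ndufa5 (1.17 ± 0.11) and Ndufa12 (1.13 ± 0.10), both of the arm that reaches into the matrix, had the largest steps between E8.5 and E9.5 after Ndufs8, and Ndufa13 (0.86 ± 0.10) was second to Ndufv1 between E9.5 and E14. Ndufa13 shares its interval with Yjefn3 on the same strand, which had 1.04 times its count. Ndufa1, lowest at E8.5, reached 19.4, 21.1 and 22.3 CPM at E9.5 and 35.4, 31.7 and 33.0 CPM at E14, above all its E8 values at both stages.

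Ndufs4, an accessory subunit of the NADH-oxidising arm whose loss in mice causes a fatal mitochondrial encephalopathy, was the one complex I gene with its lowest mean at E8. It had 59.0, 52.6 and 52.9 CPM at E8, 62.7, 63.2 and 53.2 CPM at E8.5, 65.3, 67.7 and 69.2 CPM at E9.5 and 82.0, 81.9 and 83.8 CPM at E14. The E8 and E8.5 ranges overlapped and the stages after them rose in small steps, to 0.59 ± 0.08 for E14 against E8 (edgeR adjusted p = 4.36e-05), the smallest rise of complex I. Its gene is also long, with an interval of 100.3 kb (chr13:114287795-114388094, minus strand). With library offsets adjusted for gene span, Ndufs4 was at -0.12 ± 0.06 for E8.5 against E8 (edgeR adjusted p = 0.294), 0.45 ± 0.06 for E9.5 against E8.5 (0.000408) and 0.04 ± 0.06 for E14 against E9.5 (0.638).

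The span of the gene went with the size of the change among the 66 genes. Spearman's rho between the log2 fold change and the span of the interval was 0.556 between E8.5 and E8, -0.520 between E9.5 and E8.5, -0.248 between E14 and E9.5 and -0.238 between E14 and E8, across the 66 genes, which share libraries and are not replicates. The 43 genes under 10 kb had a median of -0.34 in E8.5 relative to E8 and of 0.90 in E9.5 relative to E8.5, while the 4 genes over 30 kb had -0.06 and 0.55. In both, all genes tested showed the same order, with medians of -0.08 and 0.10 under 10 kb and 0.20 and -0.24 over 30 kb. In the later comparisons the order under 10 kb and over 30 kb was opposite to that of the 66 genes. For E14 against E9.5 all genes had -0.08 under 10 kb and 0.18 over 30 kb, against 0.54 and 0.43 among the 66. For E14 against E8 all genes had 0.00 and 0.15, against 1.06 and 0.94. The 66 genes are somewhat shorter than other genes, with a median span of 7.78 kb against 11.4 kb for all genes tested. With the span adjustment 64 genes were higher at E9.5 than at E8.5 (the call of Atp5d ended and Ndufs4 was called), 56 at E14 than at E9.5 (the calls of Ndufs4 and Atp5o ended) and 66 at E14 than at E8. Atp5o, the stalk subunit that ties the F1 head to the membrane part, lies on an interval of 247 kb that holds other genes, and its values moved with the adjustment in every interval. Its log2 fold change of 0.33 ± 0.07 for E14 against E9.5 (edgeR adjusted p = 0.00222) became -0.11 ± 0.12 (0.479). For E8.5 against E8 it was -0.40 with the adjustment and -0.02 without it, for E9.5 against E8.5 it was 0.82 and 0.43, and for E14 against E8 it was 0.32 and 0.75.

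**Figure D3:**
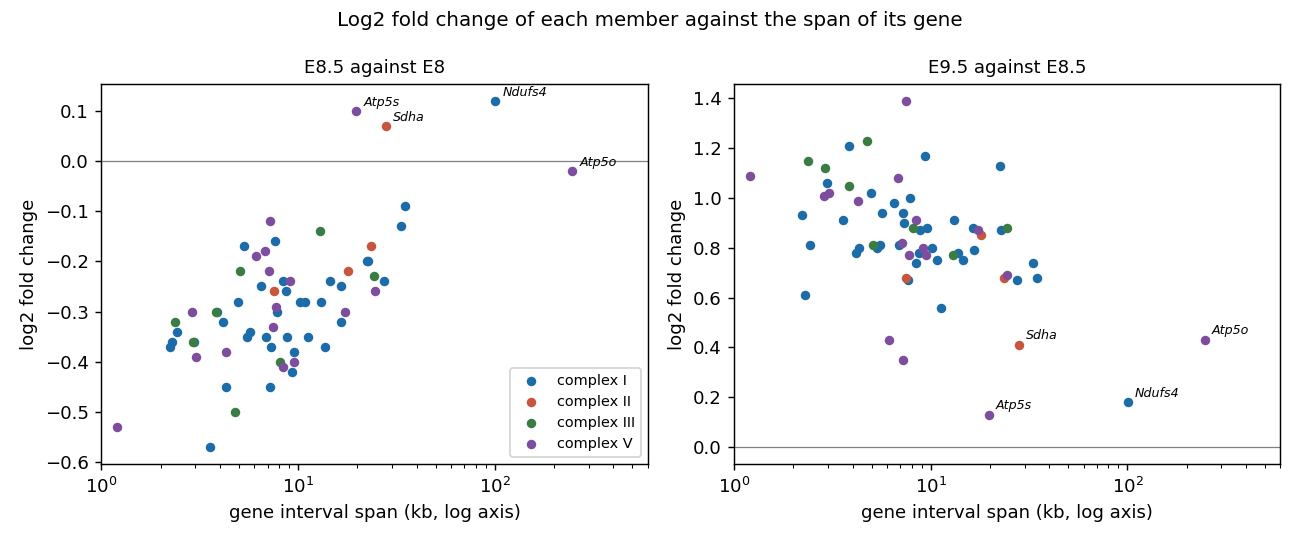
Log2 fold change of each of the 66 genes against the span of its interval (log axis, kb), with E8.5 against E8 on the left and E9.5 against E8.5 on the right, coloured by complex. The long genes Ndufs4 and Atp5o sit at the right of each panel, near 0 on the left and among the smallest rises on the right.

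Complex II, which is also the succinate dehydrogenase of the citric acid cycle, is the one complex encoded wholly in the nucleus, and its 4 genes are described one by one. Sdha, the flavoprotein that oxidises succinate, had 101, 108 and 107 CPM at E8, 119, 107 and 106 CPM at E8.5, 135, 153 and 152 CPM at E9.5 and 240, 238 and 242 CPM at E14. Its E8.5 values overlapped with those of E8, and the later stages lay above both (0.41 ± 0.08 for E9.5 against E8.5, edgeR adjusted p = 0.00167, and 0.71 ± 0.08 for E14 against E9.5, 1.12e-05). Sdhb, the iron-sulphur subunit, had 63.5, 69.9 and 68.3 CPM at E8, 66.9, 52.3 and 54.4 CPM at E8.5, 89.9, 110 and 114 CPM at E9.5 and 174, 158 and 152 CPM at E14. Its rises were 0.85 ± 0.11 for E9.5 against E8.5 and 0.63 ± 0.11 for E14 against E9.5 (edgeR adjusted p = 0.000281 and 0.000584).

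The 2 membrane anchors, which hold the quinone site and the haem, had steps of unlike size after E9.5, and their levels came closer together. Mean levels of Sdhc and Sdhd were 84.4 and 153 CPM at E9.5 and 159 and 173 CPM at E14. Sdhc had 180, 145 and 152 CPM at E14, against 75.1, 86.7 and 91.5 CPM at E9.5. Sdhd had 190, 161 and 167 CPM at E14, against 141, 159 and 160 CPM at E9.5. The values of Sdhc were far apart and those of Sdhd nearly met. Sdhc had the largest step of all 66 genes in this interval (0.91 ± 0.12, edgeR adjusted p = 5.02e-05), and Sdhd was not called (0.17 ± 0.11, 0.21); the difference between the 2 genes was not tested. At E8 Sdhc had 56.9, 60.7 and 60.5 CPM and Sdhd had 111, 118 and 115 CPM, so that E14 against E8 gave 1.42 ± 0.12 for Sdhc and 0.59 ± 0.11 for Sdhd (edgeR adjusted p = 8.96e-07 and 0.000504). Between E8.5 and E9.5 both rose by the same amount, 0.68 ± 0.12 for Sdhc and 0.68 ± 0.11 for Sdhd (edgeR adjusted p = 0.0013 and 0.000778).

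**Figure D4:**
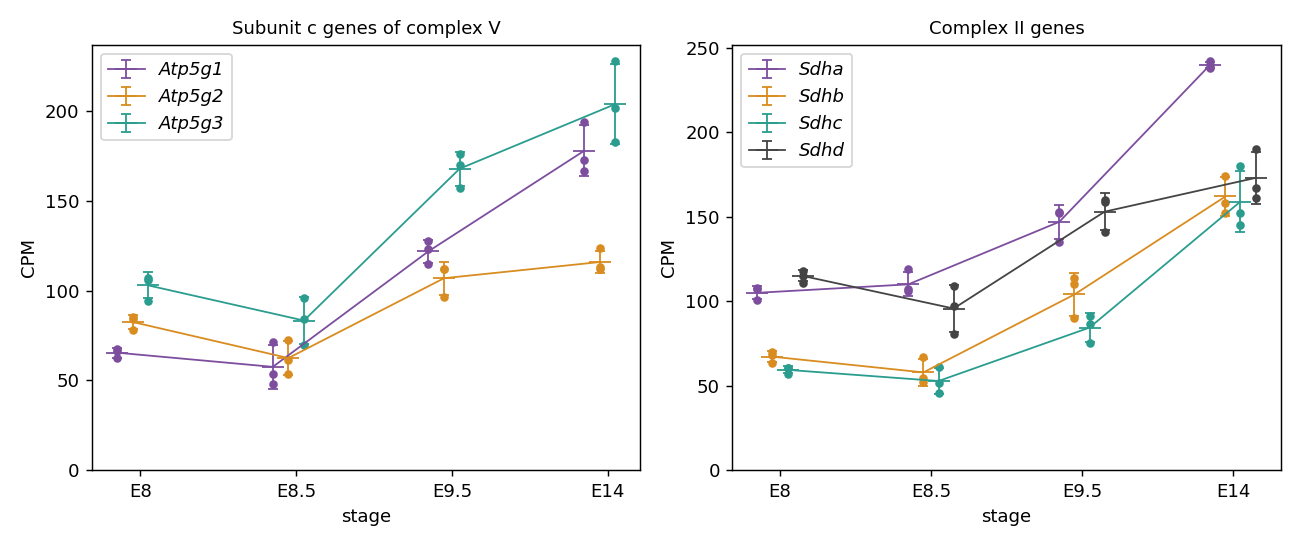
Level in CPM by stage of the 3 subunit c genes of complex V (left) and the 4 genes of complex II (right); points are libraries, horizontal ticks the mean and bars the SD of 3 libraries. Atp5g1 goes on rising after E9.5, to 194, 173 and 167 CPM at E14, while Atp5g2 and Sdhd level off.

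Complex III had the largest median step between E8.5 and E9.5, 0.97, and all 8 of its genes were called in each of the 2 later intervals. The largest rises between E8 and E14 were those of Uqcr11 and Uqcr10, both small subunits, while Uqcrh and Uqcrq, also small, had the smallest. Uqcr11 (chr10:80402997-80406830, minus strand) had 45.0, 48.2 and 45.9 CPM at E8, 42.6, 30.7 and 39.5 CPM at E8.5, 67.9, 82.8 and 83.4 CPM at E9.5 and 146, 130 and 135 CPM at E14. Uqcr10 had 42.0, 46.6 and 45.7 CPM at E8, 40.3, 30.4 and 36.8 CPM at E8.5, 69.7, 83.8 and 84.2 CPM at E9.5 and 132, 107 and 115 CPM at E14. In both genes every E8.5 value was below every E8 value, and the 2 later stages were each wholly above the stage before. For E14 against E8, Uqcr11 stood at 1.56 ± 0.12 and Uqcr10 at 1.39 ± 0.12 (edgeR adjusted p = 4.42e-07 and 9.89e-07).

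Uqcrb had the largest step of complex III between E8.5 and E9.5, with 70.1, 82.3 and 87.5 CPM at E9.5 against 36.9, 26.6 and 38.8 CPM at E8.5. Its E9.5 values were well clear of its E8.5 values (1.23 ± 0.13, edgeR adjusted p = 0.000101). Uqcrfs1, the Rieske iron-sulphur protein that takes electrons from quinol, rose by 0.81 ± 0.11 between E8.5 and E9.5 and by 0.50 ± 0.11 from E9.5 on (edgeR adjusted p = 0.000324 and 0.00236). The core proteins Uqcrc1 and Uqcrc2, which are related to mitochondrial processing peptidases, rose by 0.77 ± 0.10 and 0.88 ± 0.12 in the first of these intervals and by 0.55 ± 0.10 and 0.53 ± 0.12 in the second (edgeR adjusted p = 0.000249 to 0.00251). Uqcrh, the hinge protein at the docking site of cytochrome c, had the smallest rise of complex III between E8 and E14 (1.06 ± 0.11, edgeR adjusted p = 5.71e-06). The call of Uqcrq, a small subunit beside cytochrome b, was near the threshold in the last interval (0.33 ± 0.12, edgeR adjusted p = 0.0389) and ended in 11 of the 20 alternatives (0.22 to 0.36, adjusted p = 0.0514 to 0.156). These were the fits without E8 replicate 2 or 3, E8.5 replicate 3, E9.5 replicate 1 or 2 or any one E14 library, with a replicate block, with small structural RNA genes left out and with no filter on low counts.

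Complex V genes are described from the head to the membrane. Atp5b, the catalytic beta subunit, had 800, 894 and 863 CPM at E8, 787, 623 and 779 CPM at E8.5, 1145, 1366 and 1345 CPM at E9.5 and 1859, 1662 and 1711 CPM at E14. Atp5a1, the alpha subunit that alternates with it in the head, had 592, 650 and 636 CPM at E8, 567, 445 and 581 CPM at E8.5, 819, 981 and 966 CPM at E9.5 and 1470, 1295 and 1313 CPM at E14. For both, all E8.5 values lay below all E8 values, with replicate 2 the furthest below. The 2 later stages did not overlap with any earlier one. Alpha and beta rose by 0.80 ± 0.12 and 0.82 ± 0.11 between E8.5 and E9.5 and by 0.56 ± 0.12 and 0.44 ± 0.11 from E9.5 on (edgeR adjusted p = 0.000394 to 0.00693). Atp5c1, the gamma subunit that turns within the head, rose by 0.69 ± 0.10 and 0.40 ± 0.10 in the same intervals (edgeR adjusted p = 0.00047 and 0.00484). In the peripheral stalk, which keeps the head from turning, Atp5h (subunit d) had the largest rise, with 217, 187 and 193 CPM at E14 against 105, 127 and 133 CPM at E9.5. The E14 values were all higher (0.71 ± 0.12, edgeR adjusted p = 0.000375), whereas those of its neighbour Atp5f1 (subunit b), at 312, 263 and 283 CPM at E14 against 232, 266 and 273 CPM at E9.5, overlapped (0.15 ± 0.11, 0.251).

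The small membrane subunits e, f and g, which help the synthase to form dimers, had the largest median of any group of complex V between E8.5 and E9.5, 1.09 over 3 genes. Atp5l (subunit g; chr9:44913250-44920742, minus strand), whose upstream sequence is printed above, had 42.2, 45.1 and 43.7 CPM at E8, 40.4, 29.0 and 34.9 CPM at E8.5, 79.3, 95.1 and 98.6 CPM at E9.5 and 144, 124 and 131 CPM at E14. Most of its rise fell between E8.5 and E9.5, where it had the largest step of all 66 genes (1.39 ± 0.12, edgeR adjusted p = 3.35e-05), and a further 0.55 ± 0.12 followed by E14 (0.00217). Copies of Atp5l on 2 -ps rows had 5.75% and 3.97% of its count. Atp5l2-ps, named for a gene outside the 66, had 13347 counts, against 79146 for Atp5l. Atp5k (subunit e) had 37.0, 27.9 and 39.6 CPM at E8.5, against 49.8, 50.7 and 50.8 CPM at E8. It then reached 61.5, 79.3 and 81.5 CPM at E9.5 and 122, 111 and 103 CPM at E14, above both earlier stages (1.09 ± 0.13 for E9.5 against E8.5, edgeR adjusted p = 0.000197).

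Subunit c, which forms the rotating ring, is made from 3 genes that encode the same mature protein behind different import sequences, and the balance between them moved. Atp5g1 had 62.5, 67.8 and 66.2 CPM at E8, 71.5, 47.9 and 53.5 CPM at E8.5, 123, 128 and 115 CPM at E9.5 and 194, 173 and 167 CPM at E14. Atp5g2 had 78.4, 84.2 and 85.3 CPM at E8, 61.2, 53.6 and 72.6 CPM at E8.5, 96.4, 112 and 112 CPM at E9.5 and 124, 112 and 113 CPM at E14. Within Atp5g1 each of the 2 later stages lay wholly above the stage before, while the E9.5 and E14 values of Atp5g2 overlapped. Atp5g3 had 94.5, 106 and 107 CPM at E8 and 228, 183 and 202 CPM at E14. For E14 against E8, the log2 fold change was 1.44 ± 0.13 for Atp5g1, 0.49 ± 0.11 for Atp5g2 and 0.99 ± 0.12 for Atp5g3 (edgeR adjusted p = 1.42e-06, 0.00165 and 1.72e-05).

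As a share of the summed counts of the 3 genes, Atp5g1 made up 35.7% ± 1.11 at E14 against 26.1% ± 0.516 at E8, and Atp5g2 made up 23.4% ± 0.682 against 32.9% ± 0.364 (SD, n = 3 libraries each; exact two-sided permutation p = 0.1 for each, the smallest that 3 against 3 allows). The share of Atp5g3 was 40.9% ± 1.57 at E14 and 40.9% ± 0.726 at E8. The E8.5 libraries spread widely, with Atp5g1 at 31.3%, 28.0% and 25.4% and Atp5g2 at 26.8%, 31.3% and 34.5% in replicates 1 to 3, and replicate 3 was the one closest to the E8 libraries. At E14 the share of Atp5g1 was higher than at E9.5 and that of Atp5g2 was lower (35.7% against 30.8% and 23.4% against 26.9%, exact two-sided permutation p = 0.1 for each, n = 3 libraries each).

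Genes that help to build the complexes were mostly higher at E9.5 than at E8.5, and, except for complex V, fewer were called higher between E9.5 and E14. The counts below and those of the other lists stand against the shares of all genes given above, 18.4% higher and 18.5% lower at E9.5 against E8.5 and 25.4% higher and 24.6% lower at E14 against E9.5. Of 14 complex I assembly factors tested, 10 were higher and 1 lower at E9.5 than at E8.5 (edgeR; median 0.41), led by Ndufaf3 (0.65 ± 0.13) and Tmem126b (0.65 ± 0.10). At E14 against E9.5, 2 were higher (Foxred1, 0.27 ± 0.09, and Acad9, 0.26 ± 0.09) and 1 lower (Timmdc1, -0.28 ± 0.07), with a median of 0.07, and both counts are a smaller share of the list than of all genes. For the other complexes the counts were 3 of 4 higher for complex II, 4 of 6 higher and 1 lower for complex III and 3 of 4 higher for complex V at E9.5, and 0, 1 and 3 higher at E14 against E9.5. Sdhaf3, which helps to mature the iron-sulphur subunit Sdhb, was lower at E14, with 16.5, 18.6 and 18.8 CPM at E14 against 30.9, 36.7 and 41.3 CPM at E9.5. The 2 ranges were far apart (-1.01 ± 0.11, edgeR adjusted p = 1.13e-05), in the interval in which Sdhb itself rose. Atpif1, the inhibitor of ATP hydrolysis by complex V, rose with the synthase, by 0.99 ± 0.13 at E9.5 and by 0.75 ± 0.13 at E14 (edgeR adjusted p = 0.000249 and 0.000417).

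Neighbouring steps of respiration rose as well. Of 10 shared subunits of complex IV, 10 were higher at E9.5 than at E8.5 (edgeR; median 0.95) and 9 at E14 than at E9.5 (median 0.43). Of 14 citric acid cycle genes, 11 and 13 were higher (medians 0.62 and 0.52), and Idh2, the NADP-linked isocitrate dehydrogenase, had 844, 760 and 769 CPM at E14 against 202, 260 and 252 CPM at E9.5. Its 2 ranges were far apart (1.73 ± 0.10, edgeR adjusted p = 1.38e-07). Of 18 electron carriers and quinone-entry genes, 13 were higher and 1 lower at E9.5, and 9 were higher and 2 lower at E14 against E9.5. The largest change was in Coq8a, a factor of ubiquinone synthesis (2.63 at E14 against E9.5, mean 14.5 ± 0.749 CPM against 2.34 ± 0.102 CPM, SD, n = 3 each). Cyc1 averaged 116 ± 5.95 CPM at E14 against 58.3 ± 3.49 CPM at E8, and Cycs, cytochrome c, averaged 266 ± 27.0 CPM against 195 ± 1.95 CPM (SD, n = 3 each).

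The genes of factors known to act on respiratory genes did not share one course. Of 16, 6 were higher and 6 lower at E9.5 than at E8.5, and 7 higher and 4 lower at E14 than at E9.5 (edgeR). Nrf1 was lower at E9.5 (-0.29 ± 0.10, edgeR adjusted p = 0.0343), as was Yy1 (-0.24 ± 0.06, 0.0115), while Gabpa (0.30 ± 0.08, 0.0145) and Esrra (0.25 ± 0.08, 0.0331) were higher. The other ERR genes went the other way from Esrra. Esrrb had the largest change of the list there (-1.33), with a mean of 5.86 CPM at E9.5 against 14.7 CPM at E8.5. Esrrg had a mean of 113 CPM at E9.5 against 225 CPM at E8.5. At E14 the largest changes were in Ppara, a receptor that drives fatty acid oxidation, and Perm1, a muscle regulator of that pathway. Ppara had 8.49, 9.10 and 9.11 CPM at E14 against 0.630, 0.691 and 0.651 CPM at E9.5, with no overlap (3.76 ± 0.13, edgeR adjusted p = 3.18e-09), and Perm1 rose by 3.13 ± 0.16 (4.65e-08). Ppargc1a, a coactivator of mitochondrial biogenesis, rose by 1.41 ± 0.24 (edgeR adjusted p = 0.000447). Tfam, the packaging factor of mitochondrial DNA, was higher at E9.5 (0.28 ± 0.09) and lower at E14 against E9.5 (-0.34 ± 0.09, edgeR adjusted p = 0.0237 and 0.00542).

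**Figure D5:**
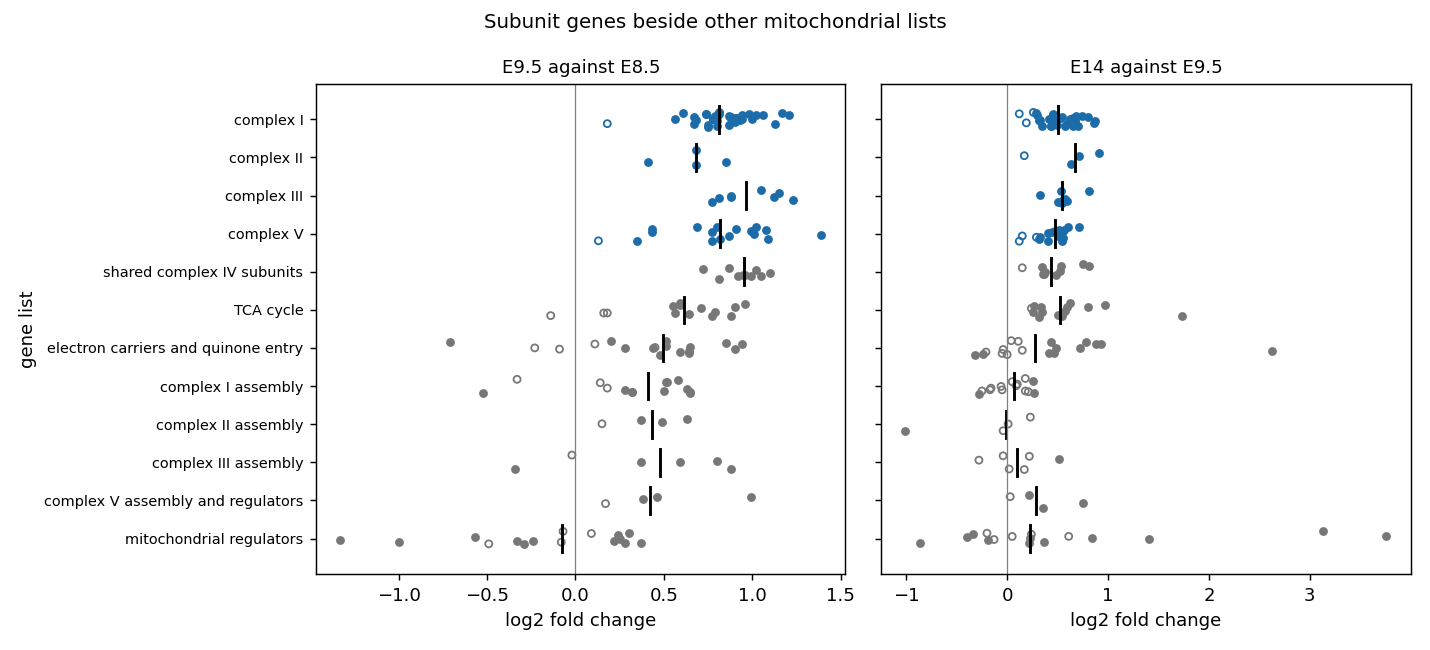
Log2 fold change of the genes of each complex (blue) and of other mitochondrial gene lists (grey) for E9.5 against E8.5 (left) and E14 against E9.5 (right); filled points passed edgeR's test at an adjusted p under 0.05 and black bars are medians. The median of complex I is 0.81 and 0.50 in the 2 panels, that of complex I assembly factors 0.41 and 0.07.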

How the data were processed

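Total RNA of dissected cardiogenic regions was sequenced in 12 libraries. Per the submitters' processing notes, the tools were STAR 2.5.0 and Cufflinks 2.2.1, with the builds mm10, GRCm38 and hg38; how the reads were counted, and with which strand setting, is not given in the sources used here. The values deposited by the authors are raw counts, whole numbers for each gene in each library, per the file headers and the values. The genes and the other lists were chosen with earlier results of these data known. Intervals were matched to GENCODE M21 (51 of 66 identical, the others by symbol and overlap). Counts were analysed with R 4.3.3 and edgeR 4.0.16. After filterByExpr 28846 genes remained, and TMM factors lay between 0.913 and 1.07. The robust quasi-likelihood fit used all 12 libraries with 1 mean for each stage (common dispersion 0.0362) and was tested on simulated data. P-values were Benjamini-Hochberg adjusted over all genes tested and called at 0.05; SE are those of the log2 fold changes, and CPM use TMM-scaled library sizes. Replicates of the same stage were not duplicates: chi-square per gene averaged 8.41 to 201 between them. It was 8.41 to 22.3 at E8 and 84.5 to 201 at E8.5, whereas the fit shares 1 spread over the stages. With the compared stages alone, the lowest edgeR adjusted p of the 66 genes for E9.5 against E8.5 was 0.00422, against 2.76e-05 in the main fit. For E14 against E8 it was 1.27e-08, against 1.05e-07. Shares were compared by exact permutation of libraries. Genes were named by a rule: per complex the 3 largest called changes in each direction and comparison, all of complex II, the smallest change between E14 and E8, subunit c and core catalytic subunits; others were chosen after their values were seen. A complex I gene that the rule names is not reported here. Promoters were RefSeq sequences of GRCm38.p6, from 250 bases before to 50 after the start. Alternatives were RLE and upper-quartile factors, no filter on low counts, small structural RNA genes left out, a replicate block, offsets adjusted for gene span (lowess, span 0.3), DESeq2 1.42.0, fits of the compared stages alone and each library left out; overlapping genes and genes that are not subunits were left out as alternatives chosen after seeing the data. Tables were made in Python 3.11 with numpy 2.4.6, pandas 2.3.3 and scipy 1.17.1, and figures with matplotlib 3.10.9.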

Additional observations from a re-analysis of the deposited data

How the results depend on the processing

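Between E9.5 and E8.5, E14 and E9.5, and E14 and E8 the counts of genes higher stayed within 1.5 times of 64, 58 and 66 and none was lower in any alternative run. In the full set, 66 of 66 genes were higher at E14 than at E8 in every alternative run. The count lower at E8.5 than at E8 was 1 and became 2 with small structural RNA genes left out, 0 with the replicate block, with offsets adjusted for gene span and with the compared stages alone, 34 in DESeq2, and 0 to 34 when 1 library was left out; the cause was not tested. Replicate numbers did not pair the libraries (correlation of deviations -0.0836 to 0.134), and with the block 64, 57 and 66 genes were higher. With 1 library left out the median for E14 against E8 ran from 1.16 to 1.25 in complex II and from 0.87 to 1.02 in complex V, lowest without E14 replicate 1. Ndufs4 went to -0.12 for E8.5 against E8 with the span adjustment. Leaving out the 8 genes with a large overlapping gene gave 56, 51 and 58 of 58 higher, and leaving out Ndufa4, Atp5s and Atp5sl gave 62, 55 and 63 of 63. The lowest summed count of these genes was 7621, and the limits are the 3 libraries per stage and reads shared with overlapping genes.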

Other observations

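The libraries of a stage differed from each other in the same direction for most subunit genes. E8 replicate 1 was the lowest E8 library for 53 of the 66 genes, E8.5 replicate 2 the lowest at E8.5 for 61, E9.5 replicate 1 the lowest at E9.5 for 63, and E14 replicate 1 the highest at E14 for 58. Relative to the E8 mean, the median over the 66 genes was 0.37 in E9.5 replicate 1 against 0.60 and 0.63 in replicates 2 and 3, and 1.20 in E14 replicate 1 against 0.98 and 1.02 in replicates 2 and 3 (log2). The summed erythroid genes were also lowest in E9.5 replicate 1 (3982 CPM against 7626 and 10161 CPM), but at E14 they ran 19506, 7905 and 26253 CPM in replicates 1 to 3. E14 replicate 1 was the shallowest library, with 56574386 counts.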
